A study of Mus musculus with 96 samples.

Results

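The genes described here are 7 genes of the glucocorticoid pathway and 2 metallothioneins, namely Nr3c1, Hsd11b1, Fkbp5, Tsc22d3, Sgk1, Zbtb16, Klf9, Mt1 and Mt2. Their 28 probe sets, of 45101 on the array, were taken as those that the array annotation assigns to exactly 1 gene symbol, where that symbol is 1 of the 9. A filter on dim signals kept 27 of the 28, leaving out 1447736_at of Fkbp5, and it kept 32999 probe sets in all, of which those with 1 gene symbol cover 14816 genes. The brightest kept probe set of a gene, by mean log2 signal, represents it below, and the other 18 kept probe sets are described beside it.

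Liver RNA from 96 male mice was hybridised to Affymetrix mouse expression arrays, with 1 mouse per array. The groups were calorie-restricted mice of C57BL6/J, 129S1/SvImJ, DBA/2J, CBA/J, C3H/HeJ and B6C3F1/J, which received 25% fewer calories from 8 weeks of age. Beside them stood control-diet mice of the same 6 strains. The first 5 strains are inbred, and B6C3F1/J is the hybrid that C57BL6/J and C3H/HeJ parents give. All mice of both diets were purchased at 6 weeks of age, lived in single cages on 84 kcal per week of an AIN93M-type diet for the weeks before the split, and were sampled at 22 weeks of age, after 14 weeks on their diets. Every strain and diet combination held 8 mice, and the labels name no engineered allele. The labelled tissue is liver, from males only, so the values describe mixed liver cells of that sex. In such bulk RNA, fewer cells of a type and less RNA per cell cannot be told apart.

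Glucocorticoids, chiefly corticosterone in mice, enter the cell and bind the receptor encoded by Nr3c1, which is held in a ligand-ready state by Hsp90 and its partner proteins and then binds DNA at glucocorticoid response elements. The liver is a classical target, where the hormone induces enzymes of amino acid breakdown and glucose production, and fasting and food restriction are known to raise its level in rodents. Metallothioneins are small cysteine-rich proteins that bind zinc and copper. Their genes are induced by metals through the zinc-sensing factor MTF1, and also by glucocorticoids and by interleukin-6.

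The promoter windows of the metallothionein genes are shown because both genes rose with restriction, and because metal response elements are the best known sequences of these genes. They are RefSeq windows on GRCm38.p6, from 250 bases before the annotated start of the gene to 50 bases after it, printed 5' to 3' on the plus strand. Capitals mark each match to the metal response element core, searched on both strands as TGCACNC or TGCGCNC. The Mt1 window lies at chr8:94178839-94179138 and the Mt2 window at chr8:94172368-94172667.
Mt1: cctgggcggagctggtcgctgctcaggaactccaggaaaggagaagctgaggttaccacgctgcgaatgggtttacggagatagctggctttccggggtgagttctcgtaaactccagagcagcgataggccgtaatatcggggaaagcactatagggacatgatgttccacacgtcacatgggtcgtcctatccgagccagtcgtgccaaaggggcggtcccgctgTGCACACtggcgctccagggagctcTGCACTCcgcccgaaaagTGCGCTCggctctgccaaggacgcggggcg
Mt2: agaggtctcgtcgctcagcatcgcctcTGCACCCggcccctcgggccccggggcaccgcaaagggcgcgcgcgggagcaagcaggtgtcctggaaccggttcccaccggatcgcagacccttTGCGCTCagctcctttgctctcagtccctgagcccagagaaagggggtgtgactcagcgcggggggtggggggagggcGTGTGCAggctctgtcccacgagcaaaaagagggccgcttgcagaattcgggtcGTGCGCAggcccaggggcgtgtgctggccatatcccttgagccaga
The Mt1 window held 3 matches, of which 1 lay before the annotated start, and the Mt2 window held 4, of which 3 lay before it. Sequence beyond the windows was not searched, and whether transcription in liver begins at the annotated start was not tested. Of 32851 windows of 300 bases in the same table, 25.7% held at least 1 match, 1.97% held 3 or more and 0.517% held 4 or more. The core AGAACA of the glucocorticoid response element, also searched on both strands, was present in 19.0% of all windows and absent from the Mt1 and Mt2 windows. Windows were found for 7 of the 9 genes. Matches to AGAACA were present in 3 of the 6 windows listed for Sgk1 and in 1 of 3 for Tsc22d3, and not in those of Fkbp5, Hsd11b1 and Klf9. The metal response core had a match in the Hsd11b1 window and in 1 of the Sgk1 windows. A match is a description of letters within these windows and says nothing of binding.

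Values are log2 of the deposited signal, a linear intensity that the authors had scaled to a common trimmed mean. Differences are restricted minus control with the SE of a limma fit, and a difference was called when its p adjusted over all 32999 probe sets lay below 0.05. The hepatocyte genes Alb, Ttr, Apoa1, Apob and Ahsg, which define liver, averaged between 15.9 and 17.0 on the log2 scale against a mean array median of 6.71. Array medians on the log2 scale ran from 6.21 to 7.50 in 94 arrays, and were 8.29 in replicate 6 of the restricted DBA/2J mice and 8.66 in replicate 2 of the control B6C3F1/J mice. In CBA/J the array medians were 6.99 to 7.50 in restricted mice and 6.42 to 6.63 in control mice (exact permutation p = 0.000155, the smallest that 8 against 8 mice allow, adjusted p = 0.00513 over 66 comparisons). The hepatocyte marker list differed there by 1.58, with 17.16 to 18.14 in restricted and 15.99 to 16.38 in control mice at the same exact p. The 3' minus 5' signal of the Gapdh control probe sets, a sign of RNA quality, had a median of -0.00458 in restricted and -0.42 in control CBA/J mice. The part of these differences in the CBA/J results was not tested. The labels name no hybridisation batch.

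Averaged over the 6 strains, 3 of the 9 genes were higher in restricted mice and 0 were lower. These were the metallothioneins Mt1 and Mt2 and the transcription factor gene Zbtb16. Over all kept probe sets 11% were called higher and 11.7% lower, and over 14816 genes with 1 such probe set each the shares were 14.2% and 12%. The median difference of the 9 genes was 0.15, against 0.05 over all kept probe sets. Calls differed by strain, as the plot of diet effects shows. The adjustment was made within each strain, so the limma p needed for a call was not the same in all strains. In CBA/J 1425281_a_at of Tsc22d3 was called at an unadjusted p of 0.0134, while Zbtb16 in C57BL6/J was not at 0.00482. In C57BL6/J 5 of the 9 genes were higher and 0 lower by their main probe sets, against 1.21% and 1.3% of all probe sets, and 1 of the 5 was Klf9, of which another probe set was called lower in the same mice. In 129S1/SvImJ 2 were higher and 0 lower, against 1.69% and 1.63%. In CBA/J 3 were higher and 2 lower, but there 20.6% of all probe sets were called higher and 15% lower. None of the 9 was called in C3H/HeJ (0.642% higher and 0.515% lower over all probe sets), in DBA/2J (1.93% and 3.45%) or in B6C3F1/J (2.15% and 1.15%). With quantile normalization the CBA/J calls over all probe sets were 3233 higher and 6410 lower, against 6789 and 4953 with the deposited scale, and the median difference over all probe sets in that strain was -0.05, against 0.30.

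**Figure D1:**
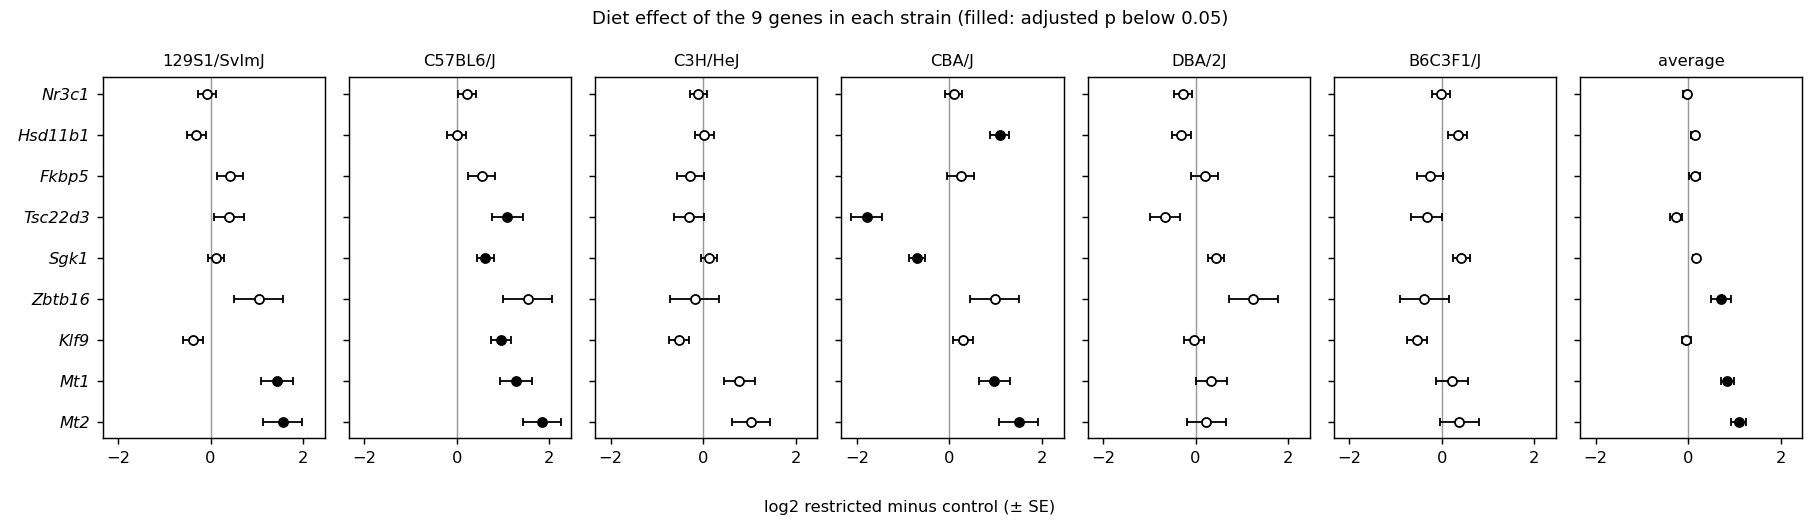
Diet effect of each gene (restricted minus control on the log2 scale, horizontal axis, with the SE of the limma fit) for the 6 strains and their average, with genes down the page and n = 8 mice per group. Filled points have an adjusted p below 0.05, with the adjustment made within each panel. Mt1 and Mt2 lie above 0 in all 6 strains, while Tsc22d3 lies at 1.10 in C57BL6/J and at -1.79 in CBA/J.

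Nr3c1, which encodes the glucocorticoid receptor, did not pass the test by its main probe set, with an average difference of -0.03 ± 0.08 (adjusted p = 0.85) and values of -0.27 to 0.22 over the strains. The -0.27 was that of DBA/2J, where the restricted mouse with an array median of 8.29 had the lowest value (9.63, next 11.27). Its 6 kept probe sets did not move alike. The second brightest, 1460303_at, fell by 0.20 ± 0.06 in the average (adjusted p = 0.00949), but without CBA/J that average was -0.02 (adjusted p = 0.911). In CBA/J its difference was -1.10 ± 0.15 (adjusted p = 2.82e-09), with 9.71, 10.38 and 10.63 in restricted mice, against 11.07, 11.32 and 11.82 in control mice, and the groups did not overlap. In the same mice 1421866_at and 1457635_s_at fell too, with differences of -1.07 ± 0.24 and -1.17 ± 0.30, while the main probe set gave 0.09 ± 0.19 (adjusted p = 0.728). With the array median as a covariate 1457635_s_at lost its call (-0.61, adjusted p = 0.160) and the main probe set gained one in the opposite direction (0.52, adjusted p = 0.0420). Outside CBA/J, 1460303_at gave -0.22 to 0.24 and was called in no strain. Across the 96 mice the deviation of 1460303_at from its group mean correlated with that of the main probe set at r = 0.48, and those of 1421866_at and 1457635_s_at at 0.10 and 0.08.

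Hsd11b1 encodes the enzyme that regenerates active corticosterone inside liver cells, and it was among the brightest probe sets of the array at a mean log2 signal of 15.7. Its averaged difference was 0.14 ± 0.08 (adjusted p = 0.243). In CBA/J it was 2.13-fold higher by the deposited scale, with 16.18, 16.88 and 17.15 in restricted mice, against 15.37, 15.65 and 16.20 in control mice (1.09 ± 0.20, adjusted p = 1.15e-05). In that strain 7 of 8 restricted mice exceeded every control. The same difference was -0.05 with quantile normalization (adjusted p = 0.737), but a covariate for the median of each array raised it to 1.52 (adjusted p = 1.68e-08), so its size and direction depended on the scaling. Hepatocyte markers were higher on these arrays too, and their part in the difference was not tested. Over all strains quantile normalization gave -0.05 (adjusted p = 0.430), leaving out CBA/J also gave -0.05 (adjusted p = 0.822), and the covariate gave a called 0.21 (adjusted p = 0.0403). The other strains gave -0.31 to 0.34, none called at the main setting, while quantile normalization called DBA/2J lower (-0.41, adjusted p = 0.00682). The ends of that range came from DBA/2J (-0.31) and B6C3F1/J (0.34). Restricted DBA/2J and control B6C3F1/J each hold an array with a median above 8. These arrays were the lowest of their groups for Hsd11b1, at 13.965 (next 15.73) and 13.75 (next 15.21).

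Mean Nr3c1 signals ran from 11.54 (CBA/J) to 10.95 (B6C3F1/J) in restricted mice and from 11.76 (DBA/2J) to 10.97 (B6C3F1/J) in control mice. No pair of neighbours was called different on either diet. For Nr3c1 and for Hsd11b1 below, the means of restricted DBA/2J and control B6C3F1/J include the arrays with a median above 8. The order in restricted mice was CBA/J, DBA/2J, 129S1/SvImJ, C57BL6/J, C3H/HeJ and B6C3F1/J, and in control mice DBA/2J, 129S1/SvImJ, CBA/J, C3H/HeJ, C57BL6/J and B6C3F1/J. Hsd11b1 means in restricted mice ran from CBA/J (16.80) through DBA/2J (15.84), B6C3F1/J (15.77), 129S1/SvImJ (15.62) and C3H/HeJ (15.46) to C57BL6/J (15.09). The first step was 0.95 ± 0.20 (adjusted p = 0.00015), and the others were not called. Control mice ran from DBA/2J (16.16) through 129S1/SvImJ (15.93), CBA/J (15.71), C3H/HeJ (15.44) and B6C3F1/J (15.43) to C57BL6/J (15.09), with no step called.

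Zbtb16, a zinc finger transcription factor gene that glucocorticoids induce, was 1.64-fold higher on average (0.71 ± 0.22, adjusted p = 0.0100). By the main probe set no single strain passed the test, and the differences lay above 0 in 4 of 6 strains. C57BL6/J mice had the largest, 1.53 ± 0.53 (adjusted p = 0.127), with 9.17, 10.71 and 11.27 in restricted mice, against 7.97, 8.77 and 10.10 in control mice. There 6 of 8 restricted mice exceeded every control, and the difference was called with array weights, with the replicate block and with the C57BL6/J arrays alone (adjusted p of 0.000363, 0.0493 and 0.0045). DBA/2J gave 1.25 ± 0.53 (adjusted p = 0.161), with 8.28, 9.42 and 11.48 in restricted mice, against 7.19, 8.68 and 9.66 in control mice. 129S1/SvImJ gave 1.04 ± 0.53 (adjusted p = 0.399) over wide ranges, 7.33 to 12.18 in restricted and 7.08 to 11.88 in control mice. CBA/J gave 0.98 ± 0.53 (adjusted p = 0.137), C3H/HeJ -0.18 ± 0.53 and B6C3F1/J -0.38 ± 0.53. Without CBA/J the average was 0.65 and its call was lost (adjusted p = 0.0660). Of the other Zbtb16 probe sets, 1419874_x_at rose by 0.79 ± 0.26 on average (adjusted p = 0.0169; 0.63 and not called without CBA/J, adjusted p = 0.142) and was called higher in CBA/J (1.58 ± 0.63, adjusted p = 0.0420), though not after quantile normalization (0.96, adjusted p = 0.259) or in the fit with the covariate (1.19, adjusted p = 0.240), and 1427638_at gave 0.47 ± 0.25 (adjusted p = 0.169).

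Tsc22d3 encodes GILZ, a leucine zipper protein that mediates anti-inflammatory effects of glucocorticoids. Its averaged difference of -0.26 ± 0.13 was not called (adjusted p = 0.153), nor was the 0.04 that it came to without CBA/J (adjusted p = 0.914), and C57BL6/J and CBA/J moved in opposite directions. In C57BL6/J it was 2.14-fold higher, with 11.68, 11.98 and 12.88 in restricted mice, against 10.61, 11.00 and 11.78 in control mice (1.10 ± 0.33, adjusted p = 0.0486). All 8 restricted mice lay above the control median. In CBA/J it fell, with a difference of -1.79 ± 0.33 (adjusted p = 7.48e-06), and ran at 8.25, 9.27 and 9.99 in restricted mice, against 9.69, 11.08 and 12.07 in control mice. There 5 of 8 restricted mice lay below every control. The second probe set, 1425281_a_at, was called in the same directions, at 1.19 ± 0.28 in C57BL6/J (adjusted p = 0.00542) and -0.72 ± 0.28 in CBA/J (adjusted p = 0.0400), where its call was lost with quantile normalization (-0.58, adjusted p = 0.189) and when the array median was a covariate (-0.33, adjusted p = 0.494). The C57BL6/J call of the main probe set was lost in 4 alternatives (adjusted p of 0.0579 to 0.0803), and the CBA/J difference was -1.72 with quantile normalization and -1.07 when the array median was a covariate, called in both.

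Sgk1, a kinase gene induced by glucocorticoids and mineralocorticoids, also rose in C57BL6/J and fell in CBA/J. C57BL6/J mice had 10.41, 10.76 and 11.24 when restricted, against 9.70, 10.18 and 10.61 on the control diet (0.62 ± 0.18, adjusted p = 0.0365). Here 7 of 8 restricted mice exceeded every control. CBA/J mice had 8.43, 9.18 and 9.76 when restricted, against 9.66, 9.78 and 10.30 on the control diet (-0.70 ± 0.18, adjusted p = 0.0013). The C57BL6/J call was lost with quantile normalization, with centring on the 75th percentile and with no filter (adjusted p of 0.0539 to 0.0621), and the CBA/J call when the array median was a covariate (-0.44, adjusted p = 0.0837). The other strains gave 0.12 to 0.44, none called. The average of 0.17 ± 0.07 was not called (adjusted p = 0.0781), but without CBA/J it was 0.35 (adjusted p = 0.000825), and it was called with quantile normalization (0.20), array weights (0.20) or the array median as covariate (0.21) too.

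Klf9 encodes a Krueppel-like factor that glucocorticoids and thyroid hormone induce, and its probe sets went against each other. By its main probe set, 1456341_a_at, C57BL6/J was the only strain called, at 0.95 ± 0.22 or 1.94-fold (adjusted p = 0.00321). The values there were 13.00, 13.65 and 13.89 in restricted mice, against 12.27, 12.57 and 12.85 in control mice, so the groups did not overlap. In the same mice 1422264_s_at, a dimmer probe set, fell, with 8.08, 8.44 and 8.86 in restricted mice, against 8.82, 9.84 and 10.61 in control mice (-1.37 ± 0.41, adjusted p = 0.0463), and 1428288_at, nearly as bright as the main probe set, gave -0.26 ± 0.19 (adjusted p = 0.751). In the average over strains the main probe set gave -0.04 ± 0.09 (adjusted p = 0.819), while 1428288_at fell by 0.31 ± 0.08 (adjusted p = 0.000979) and 1422264_s_at by 0.77 ± 0.17 (adjusted p = 0.000147). In single strains 1428288_at was lower in 129S1/SvImJ (-0.70 ± 0.19, adjusted p = 0.0136) and 1428289_at was higher in CBA/J (0.97 ± 0.22, adjusted p = 0.000221). Of 7 kept Klf9 probe sets 2 were called lower in the average and 0 higher. Without CBA/J 1428289_at was called lower too (-0.31, adjusted p = 0.0254), against an average of -0.10 with that strain. A direction for Klf9 RNA as a whole is therefore not given. The kept probe sets not named here, 3 of Klf9, 2 of Nr3c1 and 2 of Tsc22d3, gave averages of -0.20 to 0.26 and were called neither in the average nor within a strain.

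Fkbp5, a co-chaperone gene whose product lowers the affinity of the receptor for hormone, did not pass the test in any strain at the main setting. Its averaged difference was 0.15 ± 0.12 (adjusted p = 0.416), with a largest value of 0.54 ± 0.29 in C57BL6/J (adjusted p = 0.545) and a smallest of -0.28 ± 0.29 in C3H/HeJ (adjusted p = 0.971). In C57BL6/J the values were 10.26, 11.35 and 11.61 in restricted mice, against 10.17, 10.50 and 11.43 in control mice, and 7 of 8 restricted mice lay above the control median; with array weights this strain was called (0.70, adjusted p = 0.0198). The second probe set, 1448231_at, gave an average of 0.15 ± 0.14. Restricted 129S1/SvImJ mice spanned 9.52 to 12.65, the widest range of any group for this gene.

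**Figure D2:**
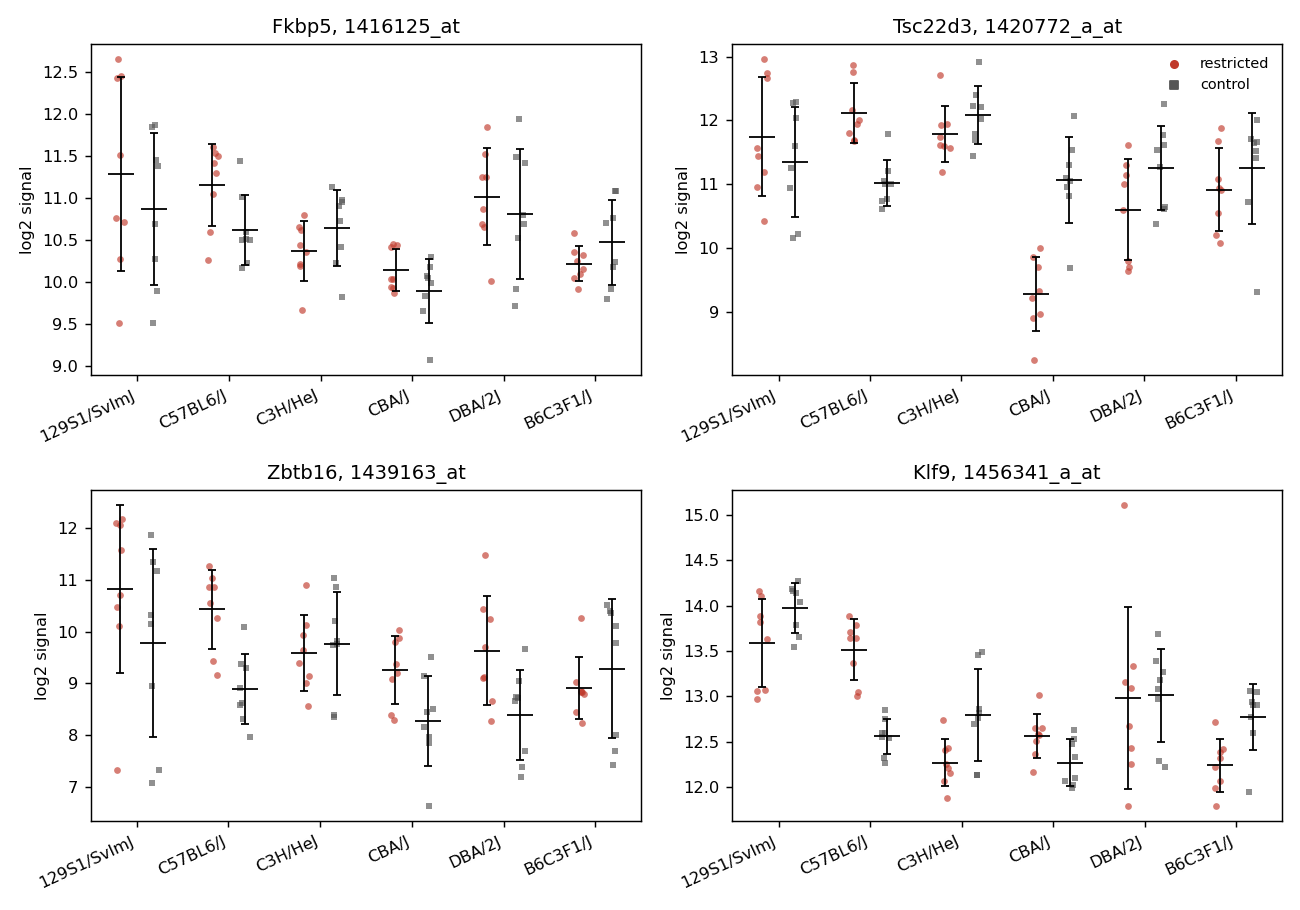
Log2 signal of Fkbp5, Tsc22d3, Zbtb16 and Klf9 in each mouse by strain, restricted mice as red circles left of control mice as grey squares, with the group mean and SD in black (n = 8 mice per group). Restricted C57BL6/J mice lie above every control for Klf9, restricted CBA/J mice lie low for Tsc22d3, and 1 restricted DBA/2J mouse, replicate 6, stands apart at 15.11 for Klf9.

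Metallothionein RNA was higher in restricted mice. Averaged over strains Mt1 was 1.79-fold higher (log2 0.84 ± 0.14 SE, adjusted p = 1.23e-06) and Mt2 was 2.13-fold higher (log2 1.09 ± 0.17, adjusted p = 2.29e-07). Both differences, taken between group means, lay above 0 in 6 of 6 strains and were called in 3, namely 129S1/SvImJ, C57BL6/J and CBA/J. For Mt2 in DBA/2J, however, only 3 restricted mice lay above the control median. Without CBA/J the averages were 0.82 for Mt1 and 1.01 for Mt2, both called. The second Mt1 probe set, 1451612_at, was dimmer and gave an average of 1.43 ± 0.27 (adjusted p = 1.75e-05). It was called in C57BL6/J at 2.23 ± 0.66 (adjusted p = 0.0463) and in CBA/J at 2.74 ± 0.66 (adjusted p = 0.000649), and in 129S1/SvImJ it gave 1.04 ± 0.66 (adjusted p = 0.574). The suffix of the main Mt1 probe set, 1422557_s_at, marks probe sets that can match more than 1 transcript, and hybridisation of related metallothionein transcripts to it was not tested.

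The Mt1 signal of 129S1/SvImJ mice ran from 14.36 through a median of 14.83 to 15.57 in restricted mice and from 12.49 through 13.52 to 14.28 in control mice. All 8 restricted mice lay above every control mouse, and the fitted difference was 1.44 ± 0.34 (adjusted p = 0.00472). In C57BL6/J the lowest, median and highest Mt1 values were 11.71, 13.17 and 13.91 in restricted mice, against 10.60, 11.77 and 12.85 in control mice. Here 5 of 8 restricted mice exceeded every control, with a difference of 1.29 ± 0.34 (adjusted p = 0.0191). CBA/J mice had Mt1 values of 13.58, 14.56 and 15.88 on restriction, against 13.02, 13.64 and 14.44 on the control diet, a difference of 0.98 ± 0.34 (adjusted p = 0.0205). That CBA/J call was lost with quantile normalization (0.64, adjusted p = 0.176), with array weights (0.89, adjusted p = 0.0731) and when the array median was a covariate (0.94, adjusted p = 0.0696).

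The groups overlapped more in the other strains. Mt1 in C3H/HeJ was 13.39, 14.52 and 16.11 in restricted mice, against 12.85, 13.65 and 14.70 in control mice (0.79 ± 0.34, adjusted p = 0.451). DBA/2J mice, which had the highest control values, gave 13.62, 14.78 and 15.76 when restricted, against 13.04, 14.19 and 15.86 when not (0.34 ± 0.34, adjusted p = 0.638). B6C3F1/J mice had 12.48, 13.28 and 14.30 on restriction, against 12.15, 13.25 and 13.43 on the control diet (0.22 ± 0.34, adjusted p = 0.807).

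Mt2 was called in the same 3 strains, with C57BL6/J and not 129S1/SvImJ at the top. In C57BL6/J it had the largest difference of any of the 9 genes, 1.84 ± 0.41 or 3.58-fold (adjusted p = 0.00289), with 10.28, 12.19 and 12.58 in restricted mice, against 9.24, 9.93 and 10.91 in control mice. All 8 restricted mice lay above the control median and 6 above every control. In 129S1/SvImJ Mt2 ran at 13.05, 13.94 and 14.52 in restricted mice, against 10.56, 12.37 and 13.36 in control mice (1.56 ± 0.41, adjusted p = 0.0152). CBA/J mice gave 11.15, 13.08 and 14.60 when restricted, against 10.60, 11.23 and 12.54 on the control diet (1.497 ± 0.41, adjusted p = 0.00306). This CBA/J difference was 1.52 with quantile normalization and 1.42 when the array median was a covariate, and was called in both. The remaining strains gave smaller values that were not called. C3H/HeJ gave 1.04 ± 0.41 (adjusted p = 0.354), with 6 of 8 restricted mice above the control median. B6C3F1/J gave 0.38 ± 0.41 (adjusted p = 0.706), with 4 of 8 above it. DBA/2J gave 0.23 ± 0.41 (adjusted p = 0.814), with only 3 of 8 above it. An F test of strain by diet interaction was not called for Mt1 (adjusted p = 0.206) or Mt2 (adjusted p = 0.119), so a difference in response between strains was not shown for either gene at the main setting. With array weights both were called (adjusted p = 0.0169 for Mt1 and 0.0156 for Mt2).

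**Figure D3:**
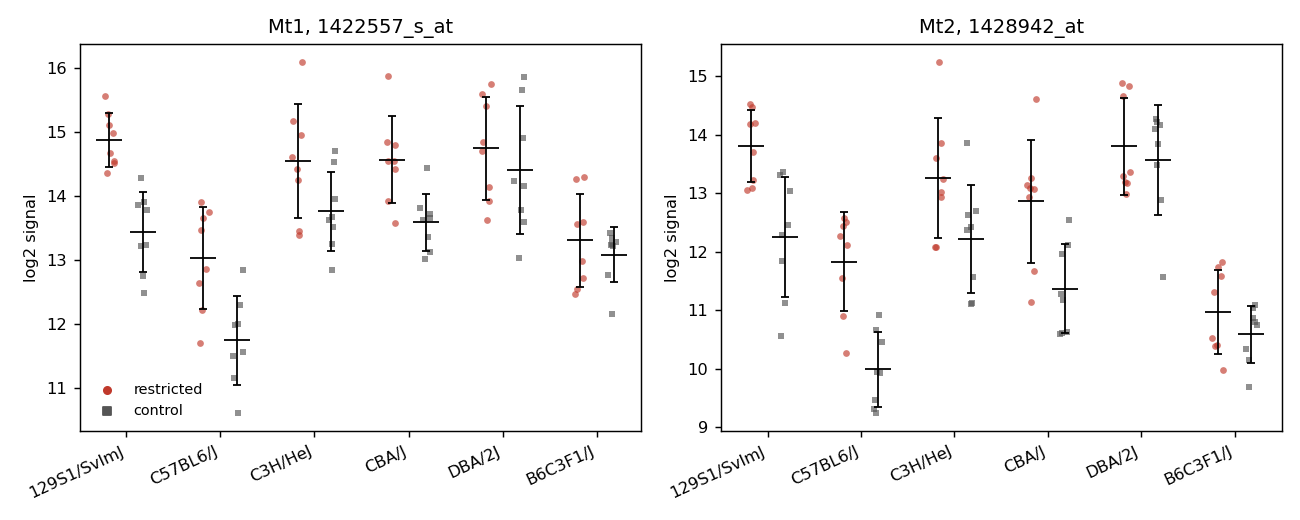
Log2 signal of Mt1 (left) and Mt2 (right) in each mouse by strain, restricted mice as red circles left of control mice as grey squares, with the group mean and SD in black (n = 8 mice per group). All 8 restricted 129S1/SvImJ mice lie above every control for Mt1, and control C57BL6/J mice have the lowest group mean for both genes.

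Levels of the metallothioneins differed between strains on either diet. The mean Mt1 signals of restricted mice ran from 129S1/SvImJ (14.88) through DBA/2J (14.75), CBA/J (14.57) and C3H/HeJ (14.55) to B6C3F1/J (13.31) and C57BL6/J (13.03), with SDs between 0.42 and 0.90. Among neighbours in that order the step from C3H/HeJ to B6C3F1/J was called (1.24 ± 0.34, adjusted p = 0.0275), though the mice overlapped. The other steps were not called. Control mice ran from DBA/2J (14.41) through C3H/HeJ (13.77), CBA/J (13.60), 129S1/SvImJ (13.45) and B6C3F1/J (13.09) to C57BL6/J (11.75), where only the last step was called (1.34 ± 0.34, adjusted p = 0.00411). Mt2 means of restricted mice ran from 129S1/SvImJ (13.80) and DBA/2J (13.80) through C3H/HeJ (13.26), CBA/J (12.86) and C57BL6/J (11.83) to B6C3F1/J (10.97). The step from CBA/J to C57BL6/J was called (1.03 ± 0.41, adjusted p = 0.0347), though the mice overlapped. For control mice the Mt2 order was DBA/2J (13.56), 129S1/SvImJ (12.25), C3H/HeJ (12.22), CBA/J (11.37), B6C3F1/J (10.59) and C57BL6/J (9.99), with DBA/2J above its neighbour (1.32 ± 0.41, adjusted p = 0.0285).

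The interaction of strain and diet was called for 4 of the 9 genes, against 18.7% of all probe sets. These were Tsc22d3 (adjusted p = 3.19e-05), Klf9 (0.000297), Sgk1 (0.000415) and Hsd11b1 (0.000604). Without CBA/J only Klf9 was called (adjusted p = 0.0120), and Tsc22d3, Sgk1 and Hsd11b1 gave 0.110, 0.661 and 0.617. The share of all probe sets called without CBA/J is not given, and 18.7% is that of the fit with all strains. Fkbp5 (adjusted p = 0.411), Zbtb16 (0.170) and the main Nr3c1 probe set (0.699) were not called. For Nr3c1 1460303_at, 1421866_at and 1457635_s_at were called, with adjusted p of 4.66e-06, 0.00709 and 0.0389.

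Levels of the 9 genes differed between strains. An F test over the 6 strains was called for 9 of 9 genes in restricted mice and for 8 of 9 in control mice, against 60.4% and 35.8% of all probe sets. The exception was Tsc22d3 in control mice (adjusted p = 0.0582). Calls lost at another setting were Nr3c1 in restricted mice with centring on the 75th percentile (adjusted p = 0.331), Hsd11b1 in restricted mice with quantile normalization (0.311), and Fkbp5 and Zbtb16 in control mice with either of these (0.0595 to 0.130). Klf9 had the highest means in 129S1/SvImJ, at 13.59 in restricted and 13.97 in control mice. In control mice the step to DBA/2J (13.01) was called (0.96 ± 0.22, adjusted p = 0.000974). Below them, restricted mice ran C57BL6/J (13.51), DBA/2J (12.98), CBA/J (12.57), C3H/HeJ (12.27) and B6C3F1/J (12.24), and control mice C3H/HeJ (12.79), B6C3F1/J (12.77), C57BL6/J (12.56) and CBA/J (12.27), with no further step called.

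Tsc22d3 means in restricted mice ran from C57BL6/J (12.12) through C3H/HeJ (11.79), 129S1/SvImJ (11.75), B6C3F1/J (10.92) and DBA/2J (10.60) to CBA/J (9.28), and the last step was called (1.32 ± 0.33, adjusted p = 0.0011). Control mice ran from C3H/HeJ (12.09) through 129S1/SvImJ (11.35), DBA/2J (11.26), B6C3F1/J (11.25) and CBA/J (11.07) to C57BL6/J (11.02) with no such step. By these means C57BL6/J was highest on restriction and lowest on the control diet. It was not called different from its neighbour on either, at 0.33 against C3H/HeJ when restricted (adjusted p = 0.648) and -0.05 against CBA/J on the control diet (adjusted p = 0.967). Sgk1 means in restricted mice ran from C57BL6/J (10.80) through 129S1/SvImJ (10.50), B6C3F1/J (10.35), C3H/HeJ (10.30) and DBA/2J (9.97) to CBA/J (9.19), with the last step called (0.78 ± 0.18, adjusted p = 0.000423). Control means ran from 129S1/SvImJ (10.38) through C57BL6/J (10.18), C3H/HeJ (10.17), B6C3F1/J (9.93) and CBA/J (9.89) to DBA/2J (9.53), where no step between neighbours was called.

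Fkbp5 and Zbtb16 had no neighbouring strains that were called different on either diet. Fkbp5 means in restricted mice were 11.28 in 129S1/SvImJ, 11.15 in C57BL6/J, 11.01 in DBA/2J, 10.37 in C3H/HeJ, 10.21 in B6C3F1/J and 10.14 in CBA/J. Control means were 10.86 in 129S1/SvImJ, 10.81 in DBA/2J, 10.64 in C3H/HeJ, 10.62 in C57BL6/J, 10.47 in B6C3F1/J and 9.89 in CBA/J. Both diets thus had 129S1/SvImJ at the top and CBA/J at the bottom. Zbtb16 means in restricted mice were 10.82 in 129S1/SvImJ, 10.43 in C57BL6/J, 9.63 in DBA/2J, 9.59 in C3H/HeJ, 9.26 in CBA/J and 8.91 in B6C3F1/J. Control means were 9.78 in 129S1/SvImJ, 9.77 in C3H/HeJ, 9.29 in B6C3F1/J, 8.90 in C57BL6/J, 8.38 in DBA/2J and 8.28 in CBA/J. The SD of Zbtb16 within a group lay between 0.60 and 1.82.

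The cross B6C3F1/J was set against the mean of its parent strains. Among restricted mice 3 of the 9 genes were called, all lower in B6C3F1/J, against 7.52% of all probe sets called in either direction. Mt2 averaged 10.97 ± 0.72 in B6C3F1/J, against 11.83 ± 0.85 in C57BL6/J and 13.26 ± 1.03 in C3H/HeJ (SD, n = 8 each), a difference of -1.57 ± 0.36 from the parents' mean (adjusted p = 0.00205). Tsc22d3 (-1.04 ± 0.28, adjusted p = 0.0118) and Klf9 by its main probe set (-0.65 ± 0.19, adjusted p = 0.0188) were lower as well. Of the other probe sets, 1425281_a_at of Tsc22d3 (-0.82 ± 0.25), 1460303_at (-0.51 ± 0.13) and 1457635_s_at (-0.97 ± 0.26) of Nr3c1 were also called lower. In control mice 0 of 9 genes were called by their main probe sets, against 7.29% of all probe sets, and the differences ran from -0.52 for Mt2 to 0.33 for Mt1. Of the other probe sets, 1457635_s_at of Nr3c1 (-1.36 ± 0.26, adjusted p = 0.000232) and 1422264_s_at of Klf9 (-1.14 ± 0.35, adjusted p = 0.0309) were called lower there. The diet effect itself was not called to differ from that of the parents' mean for any of the 9, and limma called 0% of all probe sets in that contrast, where 2277 had an unadjusted p below 0.05. Its values were -1.06 ± 0.51 for Mt2, -1.06 ± 0.65 for Zbtb16, -0.81 ± 0.42 for Mt1, -0.74 ± 0.27 for Klf9 and -0.73 ± 0.40 for Tsc22d3. The control group of B6C3F1/J holds 1 of the arrays with a high median, and without the arrays with a median above 8 the Klf9 diet effect of the main probe set in B6C3F1/J was called lower, at -0.65 (adjusted p = 0.0248), against -0.53 with them (adjusted p = 0.181). It was also called with quantile normalization (-0.79, adjusted p = 0.0315) and with array weights (-0.64, adjusted p = 0.0119).

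**Figure D4:**
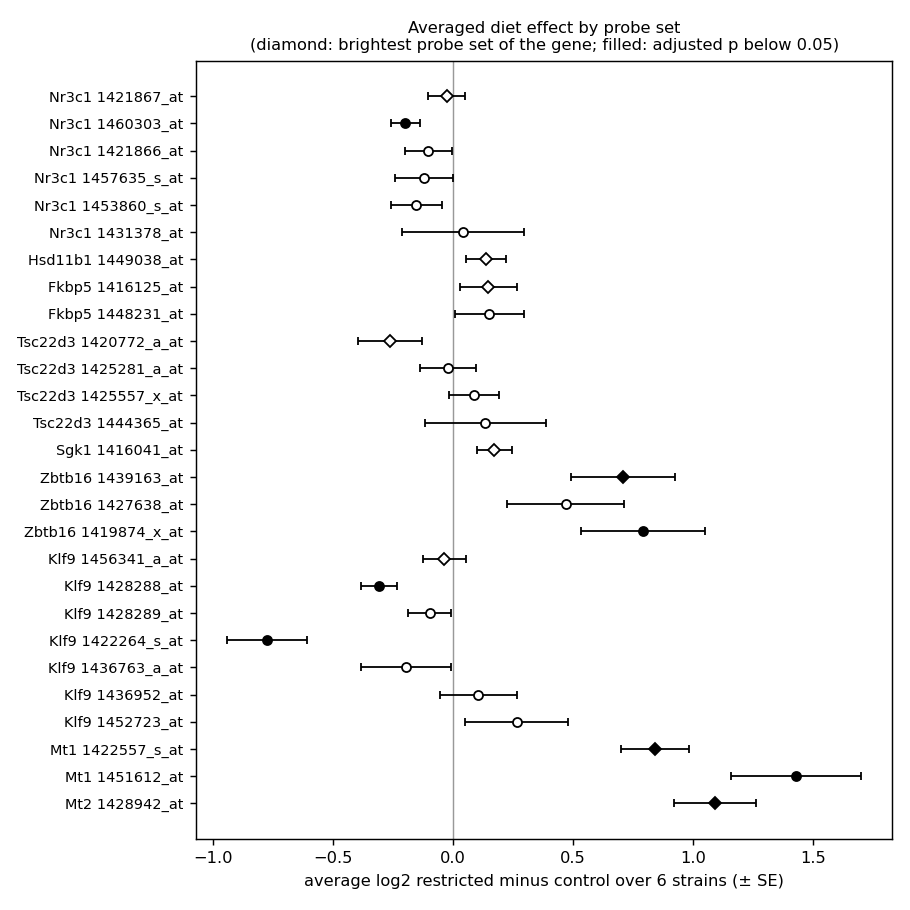
Averaged diet effect (restricted minus control on the log2 scale, with the SE of the limma fit) of the 27 kept probe sets, by gene down the page. Diamonds are the brightest probe set of each gene and filled points have an adjusted p below 0.05. Both Mt1 probe sets, that of Mt2 and 2 of 3 for Zbtb16 lie above 0 and are filled, while 2 Klf9 and 1 Nr3c1 probe sets are filled below 0.

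Within groups, mice that were high for 1 of these genes tended to be high for certain others. For each pair of the 9 genes the deviations of the 96 mice from their group means were correlated, 36 pairs in all, with two-sided permutation within groups (100000 resamples). Of these 8 were called positive and 1 negative after adjustment over the pairs. They fell into a metallothionein pair joined by Klf9, a chain of hormone targets, and a pair of Nr3c1 and Hsd11b1. Each gene entered by its main probe set alone. The other probe sets correlated with the main one at r of -0.13 to 0.48 for Nr3c1 and -0.10 to 0.55 for Klf9. Pairs of genes by these other probe sets were not tested. The share of pairs called among other genes is not given, so these counts have no background beside them. Some genes outside the 9 reached a higher r, such as Uox with Hsd11b1 (0.93). Replicate numbers were left out of account in the permutation, which treats the mice of a group as exchangeable. For Zbtb16 mice of some replicate numbers lay on the same side of their group mean in most groups. The part of replicate number in the permutation p below was not tested.

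Mt1 and Mt2 correlated at Pearson r = 0.74 and Spearman rho = 0.72 (each permutation p = 1e-05, the smallest that 100000 resamples can give, adjusted p = 5e-05 and 6e-05). The r was 0.73 without the 2 mice farthest from the median of Mt1, 0.88 among the 48 restricted mice and 0.58 among the 48 control mice. It lay between 0.63 and 0.92 in the 6 strains. Klf9 by its main probe set correlated with Mt1 at r = 0.50 and rho = 0.49 and with Mt2 at r = 0.47 and rho = 0.51 (permutation p = 1e-05 for both r, adjusted p = 5e-05). Without the 2 farthest mice these r were 0.50 and 0.46, and within restricted mice 0.43 and 0.40, against 0.62 and 0.58 within control mice.

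Fkbp5 and Zbtb16 correlated at r = 0.73 and rho = 0.69, Tsc22d3 and Zbtb16 at r = 0.66 and rho = 0.63, and Fkbp5 and Tsc22d3 at r = 0.60 and rho = 0.55 (each permutation p = 1e-05, adjusted p = 5e-05 for r and 6e-05 for rho). In the 48 restricted mice these r were 0.68, 0.60 and 0.56, and in the 48 control mice 0.78, 0.72 and 0.65. Each of these pairs had r above 0 in 6 of 6 strains. Without the 2 farthest mice r was 0.69, 0.64 and 0.56. So the genes of this chain were correlated on each diet, while in the averaged diet effect Zbtb16 was called higher and the differences of Fkbp5 and Tsc22d3, 0.15 and -0.26, were not. Tsc22d3 and Sgk1 correlated more weakly, at r = 0.45 and rho = 0.47 (permutation p = 9e-05 and 4e-05, adjusted p = 0.0004 and 0.00018), with r = 0.47 without the 2 farthest mice, 0.54 in restricted and 0.34 in control mice.

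**Figure D5:**
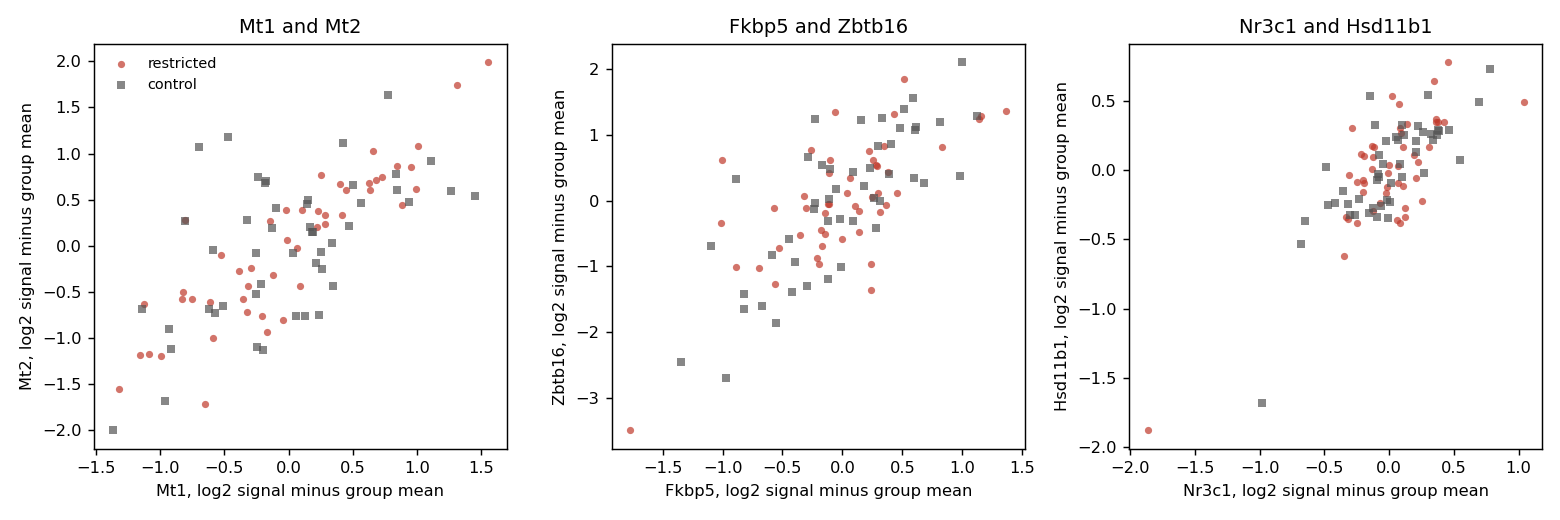
Deviation of each mouse from the mean log2 signal of its strain and diet group, for Mt1 against Mt2 (left), Fkbp5 against Zbtb16 (middle) and Nr3c1 against Hsd11b1 (right), with restricted mice as red circles and control mice as grey squares (48 each). The r over all 96 mice are 0.74, 0.73 and 0.78, and in the right panel 2 mice lie far below the rest.

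Nr3c1 and Hsd11b1 correlated at r = 0.78 and rho = 0.64 (each permutation p = 1e-05, adjusted p = 5e-05 and 6e-05), with 0.77 in restricted and 0.78 in control mice. The 2 mice far below the rest in both genes are the ones with array medians above 8, and without these arrays r was 0.62. Sgk1 and Hsd11b1 were correlated negatively, at r = -0.40 and rho = -0.46 (permutation p = 0.00154 and 8e-05, adjusted p = 0.00616 and 0.00032), with -0.38 without the 2 farthest mice, -0.53 in restricted and -0.21 in control mice. That relation was -0.16 with quantile normalization (adjusted p = 0.286). With the array median regressed out, the 8 positive pairs had r of 0.38 to 0.74. Fkbp5 was not correlated beyond the threshold with Mt1 (r = 0.15, permutation p = 0.159, adjusted p = 0.263) or Mt2 (r = 0.23, permutation p = 0.028, adjusted p = 0.078), though with quantile normalization the pair with Mt2 was called (r = 0.29, adjusted p = 0.0157).

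Beyond the 9 genes, the genes most alike in these deviations were sought among the 8988 genes above the median signal, over the 96 mice, as a description with no test. After Mt2, the genes most like Mt1 were Litaf (r = 0.67) and Grn (0.65), and after Mt1 those most like Mt2 were Smim13 (0.56) and Klf9 (0.47). Those most like Fkbp5 were Zbtb16 (0.73), Lpin1 (0.73), a phosphatidate phosphatase gene, and Fbxo31 (0.73). Lpin1 (0.75), Fkbp5 and Cdip1 (0.73) were most like Zbtb16. Tsc22d3 was most like St3gal5 (0.68), Cebpb (0.68), a C/EBP transcription factor gene, and Zbtb16 (0.66). Sgk1 was most like Tob2 (0.68), Glce (0.65) and Mapk1ip1l (0.64). Nr3c1 was most like Micos13 (0.84), Nrn1 (0.83) and Ndufs4 (0.82), and Hsd11b1 most like Uox (0.93), Mdh1 (0.93) and Pgrmc1 (0.93). All mice share the array platform and its scaling, and the r of Klf9 with Map1lc3a, Cbll1 and Map3k12, its most alike genes, were 0.56, 0.53 and 0.53 over all arrays but 0.42, 0.37 and 0.24 without those with a median above 8.

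Other genes of the pathway were taken from lists, whose calls can be set against 14.2% higher and 12% lower among 14816 genes, with a median difference of 0.07. Without CBA/J, whose restricted mice had higher array medians and hepatocyte markers, these shares were 8.75% and 7.54%, with a median of 0.02. Of 12 measured genes around the receptor 1 was higher and 6 were lower, with a median of -0.22, and without CBA/J 1 was higher and 4 were lower. The largest fall was in Hsp90aa1, the stress-inducible Hsp90 that holds the receptor, at -1.12 ± 0.09 (adjusted p = 7.84e-19). RNA of genes for its partner proteins fell too, Stip1 by 0.50 ± 0.07 (adjusted p = 5.45e-09) and St13 by 0.43 ± 0.06 (adjusted p = 3.47e-08). The others that fell, named after their values were seen, were the immunophilin Fkbp4, the mineralocorticoid receptor Nr3c2 and the coactivator Ncoa2, of which the last 2 lost their call without CBA/J (-0.15, adjusted p = 0.553, and 0.03, adjusted p = 0.861). Serpina6, which encodes the corticosteroid-binding globulin of plasma, was the member that rose, by 0.75 ± 0.11 (adjusted p = 1.03e-07). Hsp90aa1 and Stip1 are also classical heat-shock genes, and this chaperone serves many other client proteins.

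Of 21 other glucocorticoid targets of liver 10 were higher and 1 lower, with a median of 0.19, and without CBA/J 5 were higher and 1 lower. Igfbp1, Tat, Lpin1 and Tgm2 were called with and without that strain. Igfbp1, a binding protein of insulin-like growth factors, rose by 1.55 ± 0.13 (adjusted p = 7.54e-17), and Tat, tyrosine aminotransferase and a classical target, rose by 1.01 ± 0.14 (adjusted p = 8.15e-09). Lpin1, close to Fkbp5 and Zbtb16 in the comparison between mice, rose by 1.18 ± 0.20 (adjusted p = 2.92e-06). Tgm2, a transglutaminase gene, was the 1 that fell, by 0.49 ± 0.08 (adjusted p = 1.37e-06). The clock gene Per1, a direct target in many cells, gave 0.14 ± 0.17 (adjusted p = 0.606). Igfbp1 and Lpin1 are also known to answer to insulin and fasting, and these signals cannot be told apart here.

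For the metallothioneins, of 14 genes of zinc transport and MTF1, which include Mt3, 1 was higher and 6 were lower, with a median of -0.20, and without CBA/J 2 were higher and 3 lower. Mtf1 itself gave -0.12 ± 0.10 (adjusted p = 0.433), and Slc30a1, a zinc exporter gene that MTF1 induces, gave 0.01 ± 0.07 (adjusted p = 0.947). Slc30a10, of the zinc transporter family but known for manganese export, fell by 0.61 ± 0.11 (adjusted p = 4.49e-06), and Slc30a7, a transporter of the Golgi, by 0.33 ± 0.07 (adjusted p = 0.000121), a call that was lost without CBA/J (-0.19, adjusted p = 0.0970). Slc39a4, a zinc importer, rose by 0.34 ± 0.08 (adjusted p = 0.000827). Of 16 genes of interleukin-6 and the acute phase 7 were higher and 1 lower, with a median of 0.19, but without CBA/J 2 were higher and 1 lower, with a median of 0.09. The interaction of strain and diet was called for 8 of the 16, against 3243 of 14816 genes. It was also called for 7 of 12 genes around the receptor and 9 of 21 other targets. In the zinc and clock lists it was called for 6 of 14 and 7 of 15. Those higher in the average included Orm1 (0.48 ± 0.08, adjusted p = 1.88e-06), Fgb (0.40 ± 0.07, adjusted p = 2.76e-06) and Hpx (0.35 ± 0.06, adjusted p = 7.4e-06), which encode plasma proteins made by hepatocytes. Without CBA/J Orm1 gave 0.47 (adjusted p = 9.31e-05), while Fgb (0.20, adjusted p = 0.0974) and Hpx (0.08, adjusted p = 0.545) lost their call. The hepatocyte marker list was higher by 1.58 in restricted CBA/J mice. Socs3, the direct target of STAT3, gave -0.05 ± 0.19 (adjusted p = 0.889) and is named after its value was seen. Across mice the zinc importer gene Slc39a14, which interleukin-6 induces, had the highest r with Mt1 in the zinc list, at 0.59, and is named after its value was seen. It was also the highest of that list for Fkbp5 (0.47), Tsc22d3 (0.41) and Zbtb16 (0.34). For Mt2 the highest was Slc30a1 (0.38). Of 15 clock genes 2 were higher and 2 lower, with a median of 0.14, and the same counts were found without CBA/J. Hlf fell by 0.50 ± 0.08 (adjusted p = 1.3e-07) and Clock by 0.57 ± 0.10 (adjusted p = 3.24e-06), while Per3 rose by 0.44 ± 0.10 (adjusted p = 0.000584).

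Markers of the cell types that a liver piece can hold were followed beside these results. In the average over strains the endothelial list was higher in restricted mice, with mean levels of 9.46 to 10.49 in restricted and 8.96 to 10.34 in control mice, a difference of 0.20 (permutation p = 2e-05, adjusted p = 0.00022 over 11 measures). Of its 6 genes 3 were called higher, and in C57BL6/J the list differed by 0.26 (exact permutation p = 0.000311, adjusted p = 0.00684). The Kupffer cell list gave 0.19 (permutation p = 0.0726, adjusted p = 0.135), with 0 of 6 genes called. The hepatocyte list gave 0.19 (permutation p = 0.037, adjusted p = 0.102), with 2 of 5 called higher. By strain it gave 1.58 in CBA/J, but -0.40 in 129S1/SvImJ and -0.24 in C57BL6/J (adjusted exact permutation p of 0.162 and 0.160). C3H/HeJ, DBA/2J and B6C3F1/J gave 0.03, 0.10 and 0.06. Without CBA/J 0 of its 5 genes were called, with a median of -0.08. Lymphocyte and neutrophil lists gave 0.23 and 0.19 with 0 of 5 genes called in each, and lay between 4.60 and 8.70 in restricted and between 4.34 and 8.64 in control mice, around the array median. Stellate cell, bile duct, red blood cell, adipocyte and exocrine pancreas lists gave 0.07, 0.35, -0.09, -0.18 and 0.52, with 1 of 6, 0 of 4, 1 of 3, 0 of 2 and 1 of 2 genes called in either direction. Within CBA/J the bile duct, lymphocyte, neutrophil and exocrine pancreas lists were higher by 1.33, 1.06, 1.13 and 1.89 (adjusted exact permutation p of 0.0469, 0.0308, 0.0154 and 0.0427 over 66 comparisons). The part of these shifts in the results of the 9 genes and of the pathway lists was not tested.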

How the data were processed

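Signals were measured on Affymetrix mouse arrays, 1 for the liver of each of 96 mice. The deposited values are a linear intensity per probe set, which the authors computed with MAS5 per the submitters' processing notes (version not given in the sources used here). The trimmed mean of every deposited column, leaving out 2% at each end, lay between 500.001 and 500.005, so all arrays share a scale. The number of arrays limits the precision. Groups were taken from the labels; each of the 12 held 8 mice, and the labels give no batch.

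Intensities were taken to log2. Of 45101 probe sets, 64 controls were left out, and 32999 were kept with a signal at or above the array median in at least 8 arrays. Probe sets with several genes or none were not named. limma 3.58.1 (R 4.3.3) fitted the 12 group means with trended, robust variances (84 residual degrees of freedom), with Benjamini-Hochberg adjustment over all kept probe sets. The fit was tested on simulated data. Of 100 probe sets changed by 1 on the log2 scale, 84 were called in the average over strains and 14 in C57BL6/J alone. For a change of 0.5 these were 44 and 6 of 100. A difference that was not called within a strain therefore does not show that there was none. Marker lists, array medians and correlations were tested by permutation in Python 3.11.15 (numpy 2.4.6). Named genes were the 9 members and, per list, up to 3 genes with the smallest adjusted p plus Tat, Per1, Mtf1, Slc30a1 and Serpina6, and for each member the 3 genes with the highest r. Members and lists were chosen with earlier results of these data known.

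Replicate numbers are shared between diets. Over whole arrays same-numbered mice of a strain did not deviate together, with r over 0.1 in 2 of 48 pairs (range -0.14 to 0.13). They were therefore not treated as pairs. That check was not made for single genes. Replicate 3, named after its values were seen, lay below its group mean for Zbtb16 in every group but control DBA/2J (0.27). For Fkbp5 it did so in every group but control CBA/J (0.28) and control DBA/2J (0.68). Zbtb16 in replicate 2 lay below its group mean in every group but restricted CBA/J (0.77) and restricted B6C3F1/J (1.35). In replicates 7 and 8 it lay above the group mean in every group but control C57BL6/J, restricted CBA/J and restricted B6C3F1/J. These numbers were also named after their values were seen. The part of replicate number in the correlations between genes was not tested. Alternatives were other scalings, filters, variance models and array weights, the replicate block, the array median as a covariate, fits without 2 arrays or without CBA/J, and fits within a strain.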

Additional observations from a re-analysis of the deposited data

Results flagged for a closer look

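Among 108 groups of 8 mice, 9 genes in 12 groups, 10 held a mouse whose gap to its nearest neighbour, over the range of the group, exceeded the critical ratio of 0.526; about 1 in 20, or 5.4, would be expected by chance. Of these 10, 6 came from the arrays with a median above 8. Replicate 6 of restricted DBA/2J was lowest for Nr3c1 (9.62531, next 11.2671) and Hsd11b1 (13.965, next 15.7289) and highest for Klf9 (15.1062, next 13.3404). Replicate 2 of control B6C3F1/J was lowest for Nr3c1 (9.98392, next 10.8236), Hsd11b1 (13.7472, next 15.2102) and Klf9 (11.9462, next 12.5998). The Gapdh 3' minus 5' difference reached 2.51 in restricted DBA/2J, where the group's median was -0.25, and 0.103 in control B6C3F1/J, where it was -0.37.

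The other 4 were single mice on arrays with an ordinary median. Zbtb16 was lowest in replicate 1 of restricted 129S1/SvImJ (7.33021, next 10.1066) and highest in replicate 2 of restricted B6C3F1/J (10.2647, next 9.02464). Nr3c1 was lowest in replicate 1 of control C57BL6/J (10.4835, next 11.0741) and highest in replicate 2 of control CBA/J (12.1413, next 11.494).

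The diet effect differed between strains by limma's interaction test for Tsc22d3 (adjusted p = 3.194e-05), Klf9 (0.0002974), Sgk1 (0.0004149) and Hsd11b1 (0.0006038). For Tsc22d3, Sgk1 and Hsd11b1 the test was no longer passed without CBA/J, whose restricted arrays had higher medians and hepatocyte marker levels than its control arrays. The part of that difference in these results was not tested.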

How the results depend on the processing

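Of 1235 values recomputed, 1157 kept their side of the threshold (or, for counts, stayed within 1.5 times), 26 lost a call, 37 gained one, 13 counts moved and 2 values reversed. The 1157 include 14 uncalled diet effects, of 756 recomputed, whose sign changed. Leaving CBA/J out of the gene list counts was chosen after seeing the data, and 4 of those counts moved. The averaged effects of Mt1 and Mt2 were called in all alternatives run, at 0.73 to 0.84 for Mt1 and 1.01 to 1.11 for Mt2. Leaving out CBA/J, that of Zbtb16 was 0.6547 and no longer called (adjusted p = 0.066). Hsd11b1 in CBA/J turned to -0.05384 with quantile normalization, and the correlation of Tsc22d3 and Hsd11b1, 0.007 over all mice, was -0.3571 without the arrays with a median above 8. The cause was not tested. Genes called higher in the average numbered 5 with the array median as a covariate, adding Sgk1 and Hsd11b1, against 3. Over all probe sets 4017 were called higher in the average with that covariate, against 3641. Genes called higher in C57BL6/J numbered 3 with quantile normalization, with centring on the 75th percentile and with no filter, against 5, losing Tsc22d3 and Sgk1. Genes with an interaction numbered 1 without CBA/J, against 4. For the C57BL6/J and interaction counts the share of all probe sets at that setting is not given. The same holds for the next counts. Over all strains and genes the effects called higher numbered 6 with quantile normalization, against 10, and those called lower numbered 4 with quantile normalization and with array weights and 1 with the covariate, against 2. A replicate block was also fitted, although same-numbered mice did not deviate together over whole arrays. The averaged adjusted p were then 1.65e-06 for Mt1, 1.98e-08 for Mt2 and 0.00257 for Zbtb16, the last against 0.0100 without the block. Calls over all probe sets were 3712 higher and 3898 lower with the block, against 3641 and 3860. Zbtb16 in C57BL6/J (adjusted p = 0.0493) and the strain difference of Tsc22d3 in control mice (0.0471) gained a call. Dim probe sets, such as 1451612_at of Mt1, are close to the array median and least certain.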
